A study of Arabidopsis thaliana with 18 samples.

Results

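In Arabidopsis thaliana roots, 48 genes that were almost silent in untreated plants had higher transcript levels after 72 h with lanthanum. They are the genes whose mean over the control root libraries was under 5 normalised reads, whose mean over the La libraries was at least 15, and whose lowest La value lay above the highest control value. Of the 28991 genes in the root table, 8305 had a control mean under 5, and 49 of these met the conditions. AT3G48580 was left out, which gave 48. The rule allowed up to 100 genes, so all of them were taken, in the order of their La to control ratio. The genes were thus chosen by their La and control root values, which are described here without a test. A normalised read is a read count divided by the size factor of its library. It is not divided by gene length, so levels of different genes are compared only where a value per kilobase is given.

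Wild-type Col-0 plants of 6 weeks, grown in hydroponic culture, received 5 µM La or 5 µM Yb as chlorides for 72 h, or neither, in a solution without phosphate, so the controls were also deprived of phosphate. Roots and shoots were harvested separately, and the 6 groups of tissue and treatment had 3 replicates each, every replicate being a pool of 3 plants. Nothing in the labels says whether replicates grew in separate containers, so p-values measure only the spread between these pools. Libraries held 12.8 to 16.22 M reads in roots and 12.44 to 16.35 M in shoots. The 9 root identity markers summed to 10029 to 12006 normalised reads in control roots and to 9860 to 12169 in La roots, so root transcripts were abundant in both. Most of this sum was PHO1, a phosphate exporter of the root stele. Of the 9 markers, 4 fell with La in limma, namely the epidermal regulators WER (-1.09 ± 0.14 on the log2 scale, SE; adjusted p = 0.00136) and GL2 (-0.77 ± 0.22, 0.0356), the endodermal CASP2 (-2.08 ± 0.44, 0.0161) and the root cap gene SMB (-0.67 ± 0.18, 0.0292). With Yb 0 passed the test. Their part in the results was not tested. In a whole root, fewer cells of a type and less RNA per cell cannot be told apart.

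Lanthanum and ytterbium are rare earth elements, an early and a late lanthanide. Their trivalent ions resemble calcium in size and bind phosphate tightly, and lanthanum is widely used to block calcium channels of plant membranes. A gene that is near-silent in one tissue may be a marker of another organ, a gene of seeds or pollen, or a gene that answers a stress. Root genes known to be inducible in this way include peptides of the iron deficiency response, defensins, late embryogenesis abundant (LEA) proteins and lipid transfer proteins.

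Seen as a group, the 48 genes were at the edge of detection in control roots and higher in La roots. Control means ran from 0 to 4.78 normalised reads with a median of 2.40, and La means ran from 15.3 to 313 with a median of 27.1. In counts of reads, the controls together held a median of 7 reads per gene and at most 14, and the La libraries a median of 85. MYB62 and LTP4 had no read in any control library, while 5 genes had reads in 1 control, 17 in 2 and 24 in all 3. In the map of values by library, every La value is above the controls of its row, but the size of the step varies. AT2G04050 had 6.99 and 6.72 in La 2 and La 3 against 6.17 in control 3. Because every one of the 48 was selected for such a step, its presence in each row is a property of the choice. In the fit over all 22729 root genes tested, 43 of the 48 passed the adjusted threshold of 0.05 for La against control, beside 18.9% of all genes, and every La value was above every control in 18.1% of all genes. Nothing is read from these counts. The reverse pattern was more frequent. With the roles of La and control exchanged, 182 genes met the same conditions, being near-silent with La and at 15 or more in controls.

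**Figure D1:**
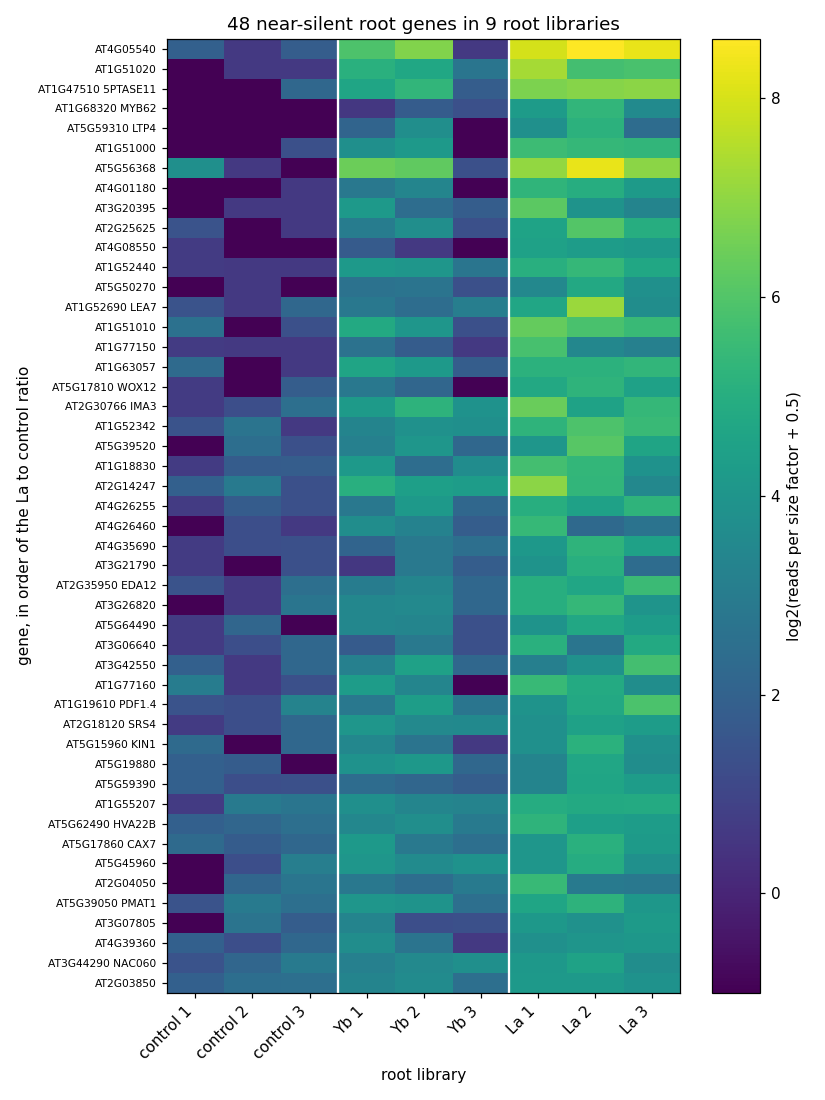
Heat map of log2(normalised reads + 0.5) for the 48 genes (rows, in order of their La to control ratio) in the 9 root libraries (columns, grouped as control, Yb and La). La values are above the controls of their row throughout because the genes were chosen for this. Some La cells are still dim, such as AT4G26460 in La 2 and AT2G04050 in La 2 and La 3. Yb 1 and Yb 2 are mostly intermediate, and Yb 3 is close to the controls for many genes.

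The most compact group was a run of consecutive genes on chromosome 1. AT1G51000, AT1G51010 and AT1G51020 lie head to tail on the plus strand, 1219 and 1108 bases apart, and the annotation calls each product an uncharacterized protein, so no function can be given. Their longest transcripts were similar, with 94.1% identity between AT1G51010 and AT1G51020 over 589 aligned bases, and 86.6% and 84.6% between AT1G51000 and the other two. Where such copies share stretches, the counting may have moved reads from one to another, so the levels of single copies are uncertain. The 250 bases before each gene start (TAIR10.1, plus strand) are shown with an identical stretch of 36 bases in capitals. It is the longest run of letters common to the 3, so its presence in each was fixed by the search. It occurs nowhere else in the genome on either strand. The likeness was not confined to these 3. Before AT1G51030, the next gene and outside the rule, 238 bases aligned with those before AT1G51000, at 89.1% identity. Between AT1G51000 and AT1G51010, 110 such bases aligned, at 96.4%. The stretch in capitals ends 153 bases before the start of AT1G51000, 14 before AT1G51010 and 38 before AT1G51020.
AT1G51000, chr1:18909663-18909912: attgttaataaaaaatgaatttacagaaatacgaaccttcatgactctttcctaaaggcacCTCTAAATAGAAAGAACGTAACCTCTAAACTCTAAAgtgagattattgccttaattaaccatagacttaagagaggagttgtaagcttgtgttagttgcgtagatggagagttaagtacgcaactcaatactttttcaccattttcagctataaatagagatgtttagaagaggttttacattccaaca
AT1G51010, chr1:18911139-18911388: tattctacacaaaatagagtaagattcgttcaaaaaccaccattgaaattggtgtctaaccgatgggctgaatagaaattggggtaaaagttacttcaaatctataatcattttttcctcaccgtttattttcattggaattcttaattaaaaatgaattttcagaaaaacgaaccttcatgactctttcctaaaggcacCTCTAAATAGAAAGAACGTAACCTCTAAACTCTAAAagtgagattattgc
AT1G51020, chr1:18912860-18913109: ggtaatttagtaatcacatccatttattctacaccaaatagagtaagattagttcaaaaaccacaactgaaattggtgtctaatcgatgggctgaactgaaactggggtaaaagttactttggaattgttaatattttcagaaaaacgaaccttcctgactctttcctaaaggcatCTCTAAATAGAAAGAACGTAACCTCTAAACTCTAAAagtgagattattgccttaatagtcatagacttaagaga

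AT1G51020 had 0, 0.996 and 1.03 normalised reads in control roots and 157, 52.4 and 56.6 in La roots. Library La 1 was well above the other two, and all La values were far from the controls. AT1G51000 had 0, 0 and 2.06 in controls against 47.5, 41.9 and 39.4 with La, an even response over the libraries. AT1G51010, with 5.55, 0 and 2.06 in controls, reached 79.1, 57.7 and 45.1. Only 2 reads in all supported each control level of AT1G51020 and AT1G51000. The ratio of pooled reads was 123.1 for AT1G51020 (95% exact counting interval 33.7 to 1021.5) and 61.5 for AT1G51000 (16.7 to 513.3), and the ratio of means was 23.9 for AT1G51010. The intervals cover counting error only and leave out the spread between libraries. The genes were chosen for this contrast, so the intervals are not a test of it.

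In Yb roots the same 3 genes were intermediate in libraries Yb 1 and Yb 2 and lowest in Yb 3. AT1G51020 had 33.4, 25.8 and 6.14, AT1G51000 had 13.3, 17.9 and 0, and AT1G51010 had 27.6, 15.9 and 2.05. In Yb 3 AT1G51020 was still above every control, whereas AT1G51000 and AT1G51010 were within the range of the controls. The next genes along the chromosome, AT1G51030 and AT1G51035, are also similar in sequence but had control means of 10.97 and 17.1 and were therefore outside the rule. With La their means were 58.3 and 82.4, and the La to control ratios were 5.32 and 4.83. Beyond this run, AT1G50980 and AT1G50990 on the upstream side and AT1G51040 on the downstream side were at 0 in every root group. In shoots the 3 copies stayed at or near 0, the highest value being 6.35 for AT1G51020 in La shoot 3. These genes came to attention as neighbours among the 48, and their sequences were compared after their values had been seen.

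**Figure D2:**
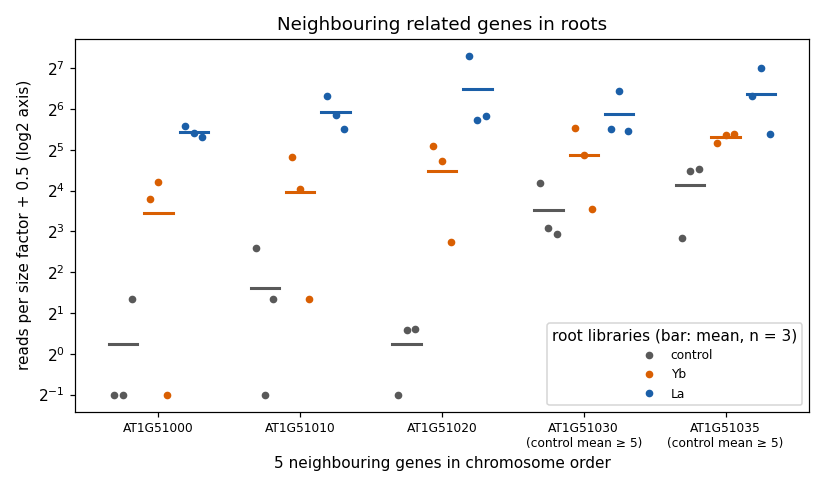
Normalised reads + 0.5 on a log2 axis for 5 related neighbouring genes in chromosome order; points are single root libraries and bars are means (n = 3) for control, Yb and La. The 3 genes on the left start near 0 in controls, whereas AT1G51030 and AT1G51035 start at means of 10.97 and 17.1 and have La means of 58.3 and 82.4.

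A further pair of neighbours was AT1G77150, annotated as a pentatricopeptide repeat protein, and AT1G77160, a protein of a domain family of unknown function, which lie 1975 bases apart. AT1G77150 had 1.11, 0.996 and 1.03 in controls and 54.9, 10.5 and 8.64 with La, so that La 1 carried 74.1% of the La sum. It shares 143 bases with AT1G77170 at 95.1% identity, a gene with means of 69.3 in controls and 79.8 with La, so its reads are uncertain too. For AT1G77160 the controls were 7.76, 0.996 and 2.06 and the La values 44.3, 28.8 and 12.5. AT1G77160 matches 209 bases of its neighbour AT1G77145 at 96.2% identity. That gene was much more abundant and went from a mean of 273 to 721, so reads of AT1G77160 may include some of AT1G77145. WOX12 and CAX7 on chromosome 5 also fell within the distance set for neighbours but have 5 genes between them.

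Among genes with known roles, signalling and transcription came first in the ranking. 5PTASE11 (AT1G47510), annotated as inositol polyphosphate 5-phosphatase 11, had 0, 0 and 4.11 in control roots and 104, 116 and 123 in La roots. The La libraries agreed closely, with a mean of 114 ± 9.34 (SD, n = 3), and the ratio of means was 83.6. Its Yb values were 24.8, 39.7 and 3.07, the last of them below the highest control. MYB62 (AT1G68320), an R2R3 MYB transcription factor reported to act in the response to phosphate starvation, was at 0 in all controls and at 19.0, 39.3 and 11.5 with La. Against a floor of 3 reads per library this was at least 7.43-fold higher. In Yb roots it had 0.953, 2.98 and 2.05, so reads were present in each library but at the detection limit. WOX12 (AT5G17810), a homeobox factor that marks founder cells of adventitious roots, had 1.11, 0 and 3.08 in controls and 27.4, 37.6 and 22.1 with La, and 6.67, 3.97 and 0 with Yb.

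SRS4 (AT2G18120) belongs to the SHI family of zinc finger regulators that act in organ development and auxin synthesis. It had 1.11, 1.99 and 4.11 in controls, 13.7, 21.8 and 19.2 with La and 16.2, 10.9 and 11.3 with Yb. The La and Yb values overlapped for this gene, and both were above every control. NAC060 (AT3G44290), a NAC transcription factor known from sugar and abscisic acid signalling, stood at the lower end of the ranking, with control, La and Yb means of 4.47 ± 2.52, 17.4 ± 5.13 and 10.9 ± 2.37.

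The most normalised reads in La roots were those of AT4G05540, a predicted P-loop nucleoside triphosphate hydrolase. Its control values were 3.33, 0.996 and 3.08, and its La values were 251, 380.0 and 307. Ytterbium libraries disagreed, with 60.04, 110.2 and 1.02, the last at the control level. Per kilobase of transcript, the defensin-like gene AT5G56368 was higher, with a La mean of 662 normalised reads per kb against 135 for AT4G05540, although such short transcripts make values per kb uncertain. Counts for AT5G56368 were 13.3, 0.996 and 0 in controls, 129.8, 308 and 123 with La, and 87.7, 76.4 and 2.05 with Yb. It was just inside the limit on the control mean, at 4.77, because of the single library control 1.

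Defensins are small secreted proteins with antifungal activity. PDF1.4 (AT1G19610), the other member of that class, had 2.22, 1.99 and 9.25 in controls and 14.8, 27.1 and 58.6 with La, one of the few genes led by La 3. Of the 6 defensin genes of the PDF1 family that were listed, all were near-silent in control roots and 3 had no read in any root library. PDF1.1 had a fitted difference of 1.59 ± 0.81 (log2, SE) for La with adjusted p = 0.207 in limma. PDF1.1 and PDF1.4 were the only 2 of the 6 with enough reads to be tested.

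The iron deficiency response was represented by IMA3 (AT2G30766), which encodes a short peptide of the IRONMAN family. These peptides promote iron uptake by shielding the bHLH factors of the pathway from degradation. IMA3 had 1.11, 1.99 and 5.14 in control roots, 84.4, 22.7 and 41.3 with La and 18.1, 36.7 and 14.3 with Yb. Both elements were above every control, and they overlapped each other. It was the only one of 25 listed iron deficiency genes that was near-silent in control roots. Of those 25, 17 rose with La and 0 fell at adjusted p below 0.05 in limma, with a median difference of 1.08 on the log2 scale, where 9.41% of all genes tested rose. In Yb roots 4 rose, namely IMA1, IMA2, OPT3 and IMA3, where 0.871% of all genes rose. IMA3, also one of the 17, was chosen by the rule for its La and control values. The Yb comparison uses the same controls. IMA1 had fitted differences of 3.07 ± 0.28 with La and 2.87 ± 0.28 with Yb. AT2G30766 overlaps genes on the opposite strand, of which AT2G30760 had means of 7.53 in controls and 14.6 with La. The strand setting of the counting is not given in the sources used here, so part of the reads could belong to that gene.

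LEA7, LTP4 and KIN1, described together here for their known roles and not as a tested list, were each highest in La 2. LEA7 (AT1G52690), a LEA protein thought to protect cell components during dehydration, had 2.22, 0.996 and 4.11 in controls and 25.3, 142 and 12.5 with La. Library La 2 held 78.9% of its La sum, and the Yb values of 6.67, 4.96 and 8.19 were close together and low. LTP4 (AT5G59310), a lipid transfer protein of the cell wall that responds to abscisic acid, was at 0 in all controls and at 13.7, 35.8 and 4.80 with La. That is at least 5.78-fold above the floor. The cold- and abscisic acid-responsive KIN1 (AT5G15960) had 13.7, 34.9 and 13.4 with La against a control mean of 2.85 ± 2.47.

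HVA22B (AT5G62490), named after a barley gene induced by abscisic acid, differed from these in being led by La 1. It had 3.33, 3.98 and 5.14 in controls and 36.9, 21.0 and 19.2 with La. AT2G03850, another LEA family gene and the last in the ranking, had 3.33, 4.98 and 5.14 in controls and 17.9, 17.5 and 14.4 with La. Of the 9 listed genes of abscisic acid and water deficit, 3 rose and 1 fell with La in the root fit, where 9.41% of all genes rose and 9.51% fell. HVA22B, one of these 3, was the only listed gene among the 48 and was chosen for its La values. In Yb roots 1 rose and 1 fell, where 0.871% and 0.37% of all genes did.

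Several other genes encode predicted enzymes or transporters. AT1G52440, predicted to be an alpha/beta hydrolase, had even libraries, with 1.11, 0.996 and 1.03 in controls, 32.7, 41.1 and 25.9 with La and 17.2, 15.9 and 6.14 with Yb. All 3 groups were separate. AT4G08550, annotated as an electron carrier and protein disulfide oxidoreductase, had 22.2, 19.2 and 17.3 with La but 2.86, 0.993 and 0 with Yb, and a single read in controls. The MATE family efflux carrier AT2G04050 had 0, 3.98 and 6.17 in controls and 44.3, 6.99 and 6.72 with La, and so depended on La 1. CAX7 (AT5G17860), a cation exchanger of the calcium family, had means of 3.85 ± 0.76, 22.7 ± 9.91 and 9.74 ± 6.49 in control, La and Yb roots. PMAT1 (AT5G39050), which attaches malonyl groups to phenolic glucosides including foreign ones, had 4.78 ± 2.40, 25.8 ± 10.3 and 12.1 ± 6.06.

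The other high-ranking genes are known only by their predicted products. AT4G01180, with XH and XS domains found in proteins of RNA-directed DNA methylation, had 0, 0 and 1.03 in controls and 38.0, 31.5 and 18.2 with La, and AT5G59390 of the same family had 9.49, 24.5 and 19.2. AT3G20395, a RING-type protein of the class that includes ubiquitin ligases, had 72.8, 14.9 and 9.60 with La, of which La 1 held 74.9%. AT2G25625, whose annotated name refers to histone deacetylases, had 23.2, 65.5 and 30.7 with La, and the F-box protein AT5G50270 had 10.5, 27.1 and 13.4. AT1G63057, without a known function, was among the most even, with 35.9, 35.8 and 39.4 with La and 4.44, 0 and 1.03 in controls.

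In all, 46 of the 48 encode proteins and 2 are noncoding RNAs, AT4G26255 and AT3G07805. AT3G07805 lies within AT3G47730 on the opposite strand, and that gene was far more abundant, with means of 1745 in controls and 2922 with La, so the reads of AT3G07805 are uncertain. The products of 12 are called uncharacterized or hypothetical, which is the case for 10.7% of all protein-coding genes in the table. The 19 genes that the naming rule did not select were named here, where they are, after their values had been seen. They had La means from 15.8 to 36.3.

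Ytterbium at the same dose and time gave the same 48 genes lower levels. The Yb mean lay between the control mean and the La mean for 48 of 48, with a median Yb mean of 9.53 normalised reads and a median share of 29.2% of the La mean. For 30 genes every Yb library was below every La library, and the share of all genes with this was not counted. The rule chose high La values, which favours this, so nothing is read from the 30. All 3 Yb libraries were above all 3 controls for 20 of the 48, where 10.6% of all genes tested showed this. The controls are shared with the rule, which chose genes for low control values and high La values, and this favours Yb values in between. A comparison with other near-silent genes has part of the same limit. A Yb mean of at least 5 was found in 39 of the 48 and in 225 (2.73%) of the 8256 other near-silent genes, and a Yb mean of at least 15 in 7 of the 48 and in 14 (0.17%) of the others. By the conditions used for La, 13 genes were near-silent in controls and higher with Yb.

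**Figure D3:**
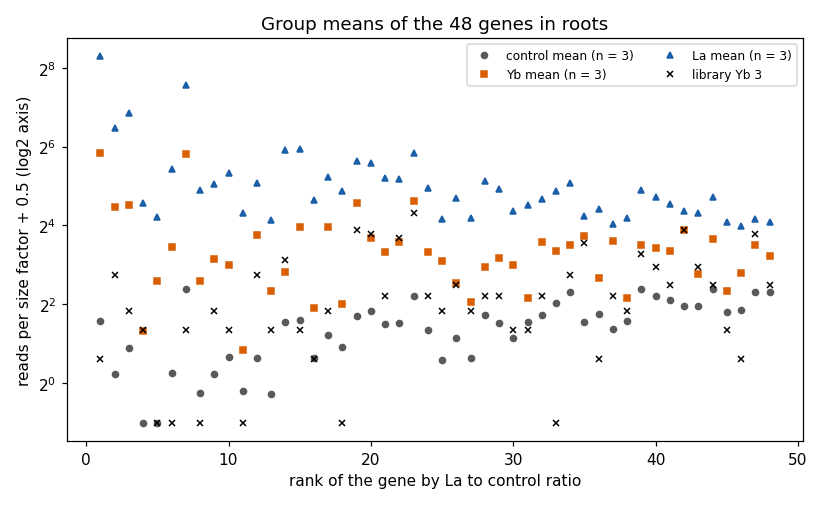
Mean normalised reads + 0.5 (log2 axis, n = 3) of each of the 48 genes in control, Yb and La roots against the rank of the gene by its La to control ratio; crosses mark library Yb 3 alone. Yb means lie between the control and La means for all 48 genes, and the crosses lie mostly at the lower side of the Yb range.

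The Yb replicates did not agree among themselves. The 48 genes summed to 692.9 normalised reads in Yb 1, 734.6 in Yb 2 and 232.4 in Yb 3, whereas the controls summed to 96.5, 100.6 and 141.8 and the La libraries to 2019.0, 2286.3 and 1574.3. In Yb 1 and in Yb 2, 45 of the 48 were above every control, and in Yb 3 22 were. The choice of genes with low controls favours such counts, and the shares over all genes were not counted. Yb 3 was the lowest Yb library for 37 of the 48, and for 35.8% of the genes with a control mean of at least 5. Green tissue markers, which could come from shoot material, also differed between these libraries, with sums of 1510 in Yb 1, 907 in Yb 2 and 545 in Yb 3. Over the groups these sums were 613 to 1160 in controls and 976 to 1227 with La, and 0 of 15 markers passed the test in either comparison. Their part in the result was not tested.

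In limma, 4 of the 48 rose with Yb at adjusted p below 0.05. Of the 22729 genes tested, 0.871% rose and 1.24% changed in either direction. AT1G52440 differed by 3.01 ± 0.45 (log2 scale of values + 0.5, SE; adjusted p = 0.0189) and AT1G51020 by 4.11 ± 0.72 (adjusted p = 0.0339). For SRS4 the difference was 2.31 ± 0.46 (adjusted p = 0.043) and for IMA3 2.94 ± 0.60 (adjusted p = 0.0482). These 4 were above every control in every Yb library. The unadjusted p was below 0.05 for 27 of the 48, and the share of all genes below it was not counted. The median fitted difference over the 48 was 2.03, against 0.00 over all genes tested. The rule chose low values in these same controls, which favours a positive difference. Nothing is therefore read from the 27 or from this median. The same choice favours the 4 calls and lowers their adjusted p, so they are given as a description. The number of calls moved with the libraries used, and so did the share of all genes called. The count was 0 without Yb 1 (0.0353% of all genes tested), Yb 2 (0.159%), control 2 (0.256%) or control 3 (0.169%), and 1 without control 1 (0.795%). Without Yb 3 it was 13 (5.06%), with a median difference of 2.21. Over these omissions the difference stayed between 2.76 and 3.46 for AT1G52440, 3.58 and 4.84 for AT1G51020, 1.95 and 2.71 for SRS4, and 2.54 and 3.44 for IMA3. On the recovered reads the count was 1 with edgeR (1.19% of all genes) and 8 with DESeq2 (4.51%).

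The La libraries also had their own profiles. The highest La value was in La 2 for 23 of the 48, in La 1 for 17 and in La 3 for 8, where the corresponding shares of genes with a control mean of at least 5 were 33.8%, 36.7% and 29.5%. For 21 of the 48 a single library held over 50% of the La sum, being La 1 for 8, La 2 for 11 and La 3 for 2, against 5.15% of genes with a control mean of at least 5. The gene most led by La 1 was the methyltransferase-like AT4G26460, with 42.2, 4.37 and 5.76 in La 1 to La 3 and 80.6% in La 1. AT2G14247, an uncharacterized protein, had 120.3, 39.3 and 10.6. The aspartyl protease AT3G42550 was led by La 3, with 8.44, 14.0 and 52.8.

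Genes just outside the rule show where its limits fell. The requirement that groups not overlap removed 10 near-silent genes with a La mean of at least 15. RAB18 (AT5G66400), a dehydrin induced by abscisic acid, had 2.11, 223.7 and 1.92 with La. AT2G33380 had 1.06, 169 and 0, and RD29B (AT5G52300) had 4.22, 47.2 and 0, again led by La 2. AT3G29970 was led by La 1, with 221.5, 0 and 1.92. In these 4 genes nearly all reads came from a single La library. Just under the La limit were AT3G09520, AT1G12890 and AT5G56510 with La means of 14.9, 14.8 and 14.6, and just over it AT4G39360, AT5G19880 and AT3G07805 with 15.3, 15.8 and 16.4. In all, 43 near-silent genes had a La mean from 10 to under 15. On the control side, AT2G40790, NAC019 (AT1G52890) and AT1G75880 were just outside, with control means of 5.28, 5.30 and 5.43. The transcription factor NAC019 reached a La mean of 83.3 and was left out by its control mean alone. PMAT1, AT5G56368 and AT1G55207 were just inside, with 4.78, 4.77 and 4.75.

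None of the 48 belongs to the lists for root identity, green tissue, pollen, floral organs or seed maturation. Seed maturation genes were near-silent in 15 of 16 cases, with sums of 3.08 to 15.5 in controls and 7.38 to 11.4 with La, and 11 had no read in any root library, while floral organ genes summed to 14.4 to 25.5 and 11.6 to 21.8. The pollen list summed to 297 to 368 in controls and 6.99 to 40.1 with La. That sum was carried by the calcium pump gene ACA9, which fell by 4.27 ± 0.70 with La (adjusted p = 0.00619 in limma), and 12 of the 13 pollen genes were near-silent in control roots. The part of these markers in the result was not tested. For processes outside the 48, 9 of 15 tested senescence genes rose and 2 fell with La, and 3 of 8 genes of developmental cell death rose and 0 fell. Over all genes tested, 9.41% rose and 9.51% fell. CEP1, a protease of dying cells, had 25.5, 66.7 and 18.5 in controls and 818, 2287 and 1158 with La. Of 15 tested genes of salicylic acid and immunity, 2 rose and 3 fell, which is near these shares.

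Promoter letters were counted in the 250 bases before the start of each of the 48 genes and of all 28780 genes with such a stretch, on both strands and as a description. TGACGT occurred in 18.8% of the 48 and 7.57% of all promoters, and CACGTG, the G-box, in 12.5% and 6.31%. These can share the letters ACGT. GAANNTTC, the letters of a heat shock element, occurred in 16.7% and 9.59%. The 8 of the 48 with this motif include the 3 neighbouring copies printed above, each with at least 1 match. Their promoters are alike, so these 3 are not separate cases and they raise the share. TTGACC, a W-box, occurred in 16.7% and 12.1%, and GNATATNC, which reads like the site bound by phosphate starvation regulators, in 10.4% and 5.42%. GCCGCC and ACGCGT were found in 0 of the 48 and in 1.9% and 1.66% of all promoters.

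Shoots of the same plants offered libraries that the rule had not used. Near-silence in roots was often shared. The control shoot mean was under 5 for 26 of the 48 (54.2%), compared with 87.0% of the other near-silent root genes, and 3 genes, AT4G01180, AT1G52440 and AT4G08550, had no read in any shoot library. A further 6 (12.5%, against 5.21%) had control shoot means of at least 100, so they were ordinary shoot transcripts that control roots hardly had. These were LTP4, the glucosyltransferase-like AT3G21790, PMAT1, the noncoding AT4G26255, AT1G52342 and KIN1, with control shoot means from 121 to 730.0. The other 16 lay in between. Roots and shoots were scaled in separate tables, so levels are not compared across them.

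In the shoot fits, 36 of the 48 could be tested, the other 12 being too low, and 0 passed adjusted p below 0.05 in limma for La against control, for Yb against control or for La against Yb. The background was low as well, with 0.0865%, 0.041% and 0.0091% of the 21967 genes tested passing in these comparisons. An unadjusted p below 0.05 in limma was found for 7, 6 and 1 of the 36. There was no count over all genes to set beside these, so nothing is read from them. The median fitted differences were 0.23, 0.18 and 0.07 on the log2 scale. All La shoots were above all control shoots for 5 of the 36, where 6.25% of all genes were, and below them for 1, where 6.12% were. All Yb shoots were above all controls for 5, where 6.92% were. In edgeR the count was 0 in each comparison, and in DESeq2 it was 2 (0.551% of all genes), 2 (0.46%) and 0.

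IMA3 and AT2G14247 were the genes with the smallest p in shoots. IMA3 had 96.9, 159.6 and 38.7 in control shoots, 1292, 1376 and 835 with La and 786, 968 and 802 with Yb. Every treated library was above every control, and the elements overlapped. Its fitted differences were 3.75 ± 0.50 with La (adjusted p = 0.0994 in limma) and 3.32 ± 0.50 with Yb (adjusted p = 0.164), and DESeq2 gave 3.57 (adjusted p = 1.78e-10) and 3.11 (adjusted p = 1.83e-07). Of the 20 listed iron deficiency genes tested in shoots, 2 rose with La, where 0.0228% of all genes did, and 0 with Yb, where 0% did.

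AT2G14247 had 0.989, 8.40 and 6.46 in control shoots, 268, 223 and 63.5 with La and 42.9, 126 and 114 with Yb. The fitted differences were 5.12 ± 0.88 (adjusted p = 0.154 in limma) and 4.25 ± 0.88 (adjusted p = 0.312). In DESeq2 they were 5.14 (adjusted p = 8.39e-07) and 4.17 (adjusted p = 0.000657). La minus Yb in shoots was 0.43 ± 0.50 for IMA3 and 0.87 ± 0.88 for AT2G14247, with adjusted p of 0.958 and 0.948 in limma.

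Besides IMA3 and AT2G14247, the genes with all La shoots above all controls were LEA7, the MATE carrier AT2G04050 and the F-box gene AT5G50270. The last had means of only 0.33 in controls and 1.07 with La. Each of its La values was a single read, as was its value in control 1, so scaling alone set these apart. With Yb the further genes above all controls were AT2G04050, PMAT1 and AT5G64490, a protein with ARM repeats. LEA7 had 11.9, 3.15 and 99.0 in control shoots, 206, 157 and 132 with La and 114, 91.5 and 131 with Yb, so that control 3 overlapped the Yb values. Without control shoot 3, LEA7 and IMA3 passed the threshold in limma for both elements, where 0.459% of all genes passed for La and 0.763% for Yb, with LEA7 at 4.599 (adjusted p = 0.0101) for La and 4.05 (adjusted p = 0.0172) for Yb. AT2G04050 had 5.93, 2.099 and 9.68 in controls, 19.4, 13.2 and 25.4 with La and 23.2, 12.5 and 21.8 with Yb, a fitted difference of 1.79 ± 0.48 for La (adjusted p = 0.268). LTP4 was abundant in shoots with or without treatment, with means of 730.0 ± 241 in controls, 1347 ± 623 with La and 1259 ± 479 with Yb (n = 3).

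Opposite values in the tissues were seen for AT1G52342, an uncharacterized protein. In roots it had 2.22, 5.97 and 1.03 in controls, 36.9, 59.4 and 45.1 with La and 9.53, 13.9 and 13.3 with Yb. In shoots, where it was abundant, it had 141, 125 and 123 in controls and 115, 71.3 and 96.3 with La, each below every control, while the Yb values of 129, 107 and 134 overlapped them. The shoot difference was -0.48 ± 0.17 with La (adjusted p = 0.445 in limma). AT3G20395 had the other of the smallest p for La against Yb in shoots, with -1.63 ± 0.77 (adjusted p = 0.749) on 1.14, 0 and 4.23 against 7.72, 1.93 and 5.22. The highest-ranking root gene with a known function, 5PTASE11, had shoot means of 42.5 ± 11.8, 56.3 ± 21.4 and 55.4 ± 9.75 in control, La and Yb.

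**Figure D4:**
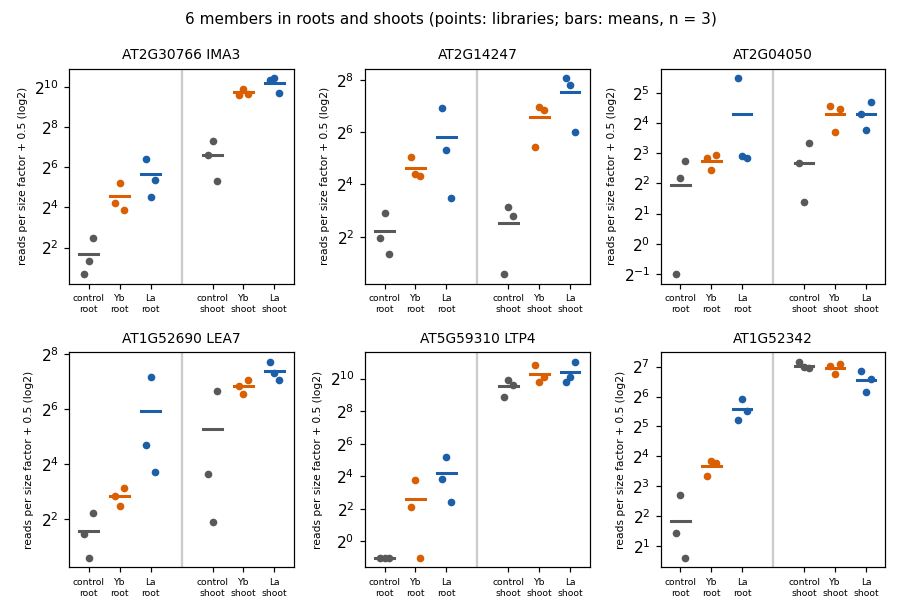
Normalised reads + 0.5 on log2 axes for 6 of the genes, with root groups left and shoot groups right of the grey line; points are libraries and bars are means (n = 3). IMA3, AT2G14247 and AT2G04050 were above every control in all La and Yb shoot libraries, LTP4 overlapped the controls there, and AT1G52342 was lower in La shoots than in controls while being higher in La roots.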

How the data were processed

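Polyadenylated RNA was sequenced from 18 libraries, 9 per tissue. The labels give a stranded kit with paired ends. The submitters' processing notes name HTSeq 0.6.1p1, TopHat2 2.1.1 and Trimmomatic 0.36.1, with TAIR10 as the build. The deposited values are a signal that the authors made per gene, namely reads over the size factor of their library. In all libraries, 100% of values were whole multiples of 1 step within 0.001, so whole reads could be recovered.

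Values were fitted as log2(value + 0.5) with limma 3.58.1 (R 4.3.3, trend and robust moderation, 9 libraries of a tissue, treatment as the single factor). Genes with a value of at least 1 in at least 3 libraries were tested, and two-sided p-values were adjusted by the Benjamini-Hochberg method over all of them with a threshold of 0.05. The fit was tested on simulated data. Alternatives included edgeR 4.0.16 and DESeq2 1.42.0 on the recovered reads. Each was run on all 3 shoot comparisons and on Yb roots. Intervals of read ratios are exact (95%) and cover counting error only, as does the floor of 3 reads per library.

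The members and lists were chosen with earlier results of these data known. Genes were named by a rule: the first 20 and last 3 in the ranking, those called in Yb roots, those with the smallest p in each shoot comparison, members of the lists, and members within 50 locus numbers of each other. Names, positions and sequences are from the RefSeq annotation of TAIR10.1, in which 28781 of 28991 genes matched by locus. The genes of the files were matched by locus only. Transcripts were compared with BLAST 2.17.0, and genes with a copy of at least 95% identity over at least 100 bases are uncertain. Besides those described above, AT3G06640 has such a stretch with AT3G06630, and AT5G39520 overlaps the abundant AT5G39510.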

Additional observations from a re-analysis of the deposited data

Results flagged for a closer look

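AT1G52342 drew attention because its values went opposite ways in the tissues. Every La root value was above every control root, while every La shoot value was below every control shoot, with a mean of 94.2 normalised reads in La shoots against 130 ± 10.2 (SD, n = 3) in controls. The root part was set by the rule. The shoot difference of -0.48 ± 0.17 (log2, SE) did not pass in limma (adjusted p = 0.445). Of the 36 genes tested in shoots, 1 had all La values below all controls, where 6.12% of all genes did. The difference between the tissues was not tested, since each tissue was scaled in its own table.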

How the results depend on the processing

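The 48 genes were the same with a ranking pseudocount of 1 or 0.1 and with TMM scaling, and 19 remained with a La mean of at least 30. Leaving out a root library gave 48 to 66 genes, with 40 of the 48 kept without La 2 and 41 without control 1. The median La difference was 3.52 to 3.98 over these omissions. For Yb roots, 4 genes passed in limma. The count was 3 with a pseudocount of 1 or 0.1, without the filter or with a filter at 5, and 4 with quantile or TMM scaling. It was 0 with only the 6 compared libraries, 10 with library weights, 1 with edgeR and 8 with DESeq2, fits that called 0.579%, 5.64%, 1.19% and 4.51% of all genes, and ran from 0 to 13 when a library was left out. The share of all genes called moved between 0.0353% and 5.06% over these omissions. Only AT1G52440 passed with edgeR and without control 1. For La and for Yb in shoots the count of 0 became 2 with DESeq2, which called 0.551% and 0.46% of all genes, and ran from 0 to 2 when a library was left out. La against Yb in shoots stayed at 0 in all the alternatives run.

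Replicate numbers did not pair the samples. Deviations of same-numbered libraries correlated at -0.172 to 0.289 in roots and -0.134 to 0.138 in shoots. With the replicate block the Yb root count was 1 (1.05% of all genes), the shoot counts were 0 and the median La difference in roots was 3.56. Depth limits the control levels, since the controls held at most 14 reads per gene in all.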
